A study of Mus musculus with 12 samples.

Results

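Kcnq1 and RNA genes annotated opposite it are described here from counts of RNA in mouse brain. Their rows are Kcnq1ot1, 4933417O13Rik, Gm28821 and Gm38065, which GENCODE M21 places within the span of Kcnq1 on the opposite strand, and Kcnq1 itself, 5 of the 55471 rows in each table. The rows were picked by annotation, but the locus was picked with its values known: the row Kcnq1ot1 was known to be higher after stimulation in input RNA, the summed features opposite Kcnq1 to be higher in U1 RNA as well, and Kcnq1ot1 to be higher in U1 than in input RNA of naive brain. The values of these rows in those contrasts are therefore given as a description, without a test.

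Kcnq1 encodes a voltage-gated potassium channel subunit best known from heart and inner ear, where it pairs with the small subunit encoded by Kcne1. Kcnq1ot1 is a long, largely unspliced nuclear RNA transcribed from the paternal allele, from a promoter inside an intron of Kcnq1 and in the opposite direction. It is known for silencing neighbouring genes of the imprinted domain in cis, among them the growth inhibitor gene Cdkn1c, most broadly in placenta. U1 snRNP recognises the 5′ splice site at the start of introns, and it is also known to hold back early cleavage and polyadenylation within them.

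All groups were mixed cortex and hippocampus of adult male C57BL6JL mice aged 3 to 5 months. MECS U1, naive U1, MECS input and naive input had 3 libraries each. MECS is maximal electroconvulsive stimulation, given as 85 mA for 1 s through ear clips, with tissue taken 90 min later; naive animals were handled in parallel without it. U1 RNA was precipitated with an antibody against U1-70K from homogenate irradiated with ultraviolet light at 400 mJ/cm2, and input RNA was set aside from the same lysate. Titles number the libraries 1 to 3 in each group, and it is not stated how many animals a lysate came from. No control precipitate was used here, so enrichment over input does not separate binding to U1 from other differences in recovery. In bulk tissue, more cells with an RNA and more RNA per cell cannot be told apart.

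Gene counts per library ranged from 704432 to 1962312, and only 1.42 to 1.84% of listed reads fell in genes. All 8 neuronal and all 12 glial and vascular marker genes had counts in at least 1 library. Some had few, such as Gad2 with 0 to 8 and Cldn5 with 1 to 7 per library, and others more, such as Camk2a with 34 to 211. The summed level of the neuronal markers was 87.9 to 189 CPM in U1 libraries and 244 to 407 CPM in input libraries, and its part in the enrichments below was not tested. CPM are counts per 1000000 gene counts after TMM scaling over the 12 libraries. The 12 glial and vascular markers summed to 350.3 to 476 CPM in U1 libraries and 687 to 1056 CPM in input libraries. Of 6 genes not expected in this tissue, Ins1 and Umod were at 0 in all libraries and Alb reached 1 count, whereas the row of the cardiac myosin gene Myh6 had 129 to 358 counts.

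Kcnq1 lies on chromosome 7 from 143106362 to 143427042 on the plus strand (mm10), spanning 320681 bases with 4093 exon bases. Kcnq1ot1 lies on the minus strand from 143203458 to 143296549, a single exon of 93092 bases that covers 29.0% of the Kcnq1 span. It lies across introns 10 and 11 of the 16-exon transcript of Kcnq1 and over its exon 11, a coding exon of 121 bases. Gm28821 (143135031 to 143140608, 610 exon bases) lies in intron 1. The 6 exon blocks of 4933417O13Rik (143322773 to 143364625, 1899 bases) lie in introns 11 and 15. Gm38065 (143350421 to 143353912, 3492 bases), a provisional gene model, lies in intron 11. None of the last 3 shares an exon base with Kcnq1.

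GENCODE M21 also places 8 small gene models inside Kcnq1 on its own strand. Of these, 4 lie within the span of Kcnq1ot1 and are annotated as miscellaneous RNAs: Gm27395 (143251367 to 143251826), Gm27389 (143273053 to 143273247), Gm27803 (143273566 to 143273684) and Gm27539 (143293932 to 143294155), 998 bases in all. Each of these sequences is the exact reverse complement of a stretch of the Kcnq1ot1 transcript, so with counting by strand a read there falls under a different row name on each strand. The GENCODE sequences of the neighbouring pair Gm27389 and Gm27803, and of exon 11 of Kcnq1, are shown because the short rows had far more counts per length than the row Kcnq1ot1 around them, and exon 11 is the only stretch where Kcnq1ot1 and exons of Kcnq1 meet. They read 5′ to 3′ on the Kcnq1 strand, with the annotated feature in capitals and 15 flanking bases on each side in lower case (chr7:143273038-143273262, chr7:143273551-143273699 and chr7:143261241-143261391, mm10).
Gm27389: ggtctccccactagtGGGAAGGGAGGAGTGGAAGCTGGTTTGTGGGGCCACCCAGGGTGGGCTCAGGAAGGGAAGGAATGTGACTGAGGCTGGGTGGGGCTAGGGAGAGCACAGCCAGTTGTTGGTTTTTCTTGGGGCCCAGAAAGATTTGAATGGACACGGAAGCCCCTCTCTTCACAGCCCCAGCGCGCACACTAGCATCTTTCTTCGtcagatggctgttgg
Gm27803: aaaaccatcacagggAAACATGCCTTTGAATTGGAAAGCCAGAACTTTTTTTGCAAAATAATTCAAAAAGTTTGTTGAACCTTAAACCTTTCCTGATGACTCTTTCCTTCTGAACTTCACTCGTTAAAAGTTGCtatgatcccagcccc
Kcnq1 exon 11: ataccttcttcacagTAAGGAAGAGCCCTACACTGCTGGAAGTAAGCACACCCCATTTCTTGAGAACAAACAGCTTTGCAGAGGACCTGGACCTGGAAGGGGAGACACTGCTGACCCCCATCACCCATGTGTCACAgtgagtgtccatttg
The exon is followed by the 5′ splice site ACAgtgagt, with the exon bases in capitals.

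Counts per length were higher in Kcnq1 and the 4 short rows annotated on its strand within Kcnq1ot1 than in the rows annotated opposite Kcnq1. Per exon kb and averaged over the 12 libraries, the rows opposite Kcnq1 had 5.49 CPM for 4933417O13Rik, 3.55 CPM for Kcnq1ot1, 3.54 CPM for Gm28821 and 1.71 CPM for Gm38065. The 4 short plus-strand rows within Kcnq1ot1 had 787 CPM per kb for Gm27389, 686 for Gm27803, 663 for Gm27539 and 333 for Gm27395, and Kcnq1 had 29.2. Counts per kb of the 4 short rows together were 78.9 to 657 times those of Kcnq1ot1, by library. When length was taken as the number of possible starts of a read of 100 bases that touches the feature, this ratio was 56.6 to 471. The other 4 plus-strand models were near or at 0: Gm37364 had up to 4 counts per library, Gm38095 up to 2, and Gm38321 and Gm37235 none.

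How strand was handled when reads were counted is not stated in the labels. Whether the row Kcnq1ot1 holds Kcnq1ot1 RNA or intronic RNA of the Kcnq1 strand, and whether the short plus-strand rows hold RNA of Kcnq1 or of Kcnq1ot1, therefore cannot be read from the names. A row name below stands for the counts listed under it. The same contrast of strands was present at Malat1, an abundant nuclear RNA: the row Malat1 had 364 to 1689 counts per library, and Gm37376, a model of 453 bases on the strand opposite to it, had 7618 to 57028.

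**Figure D1:**
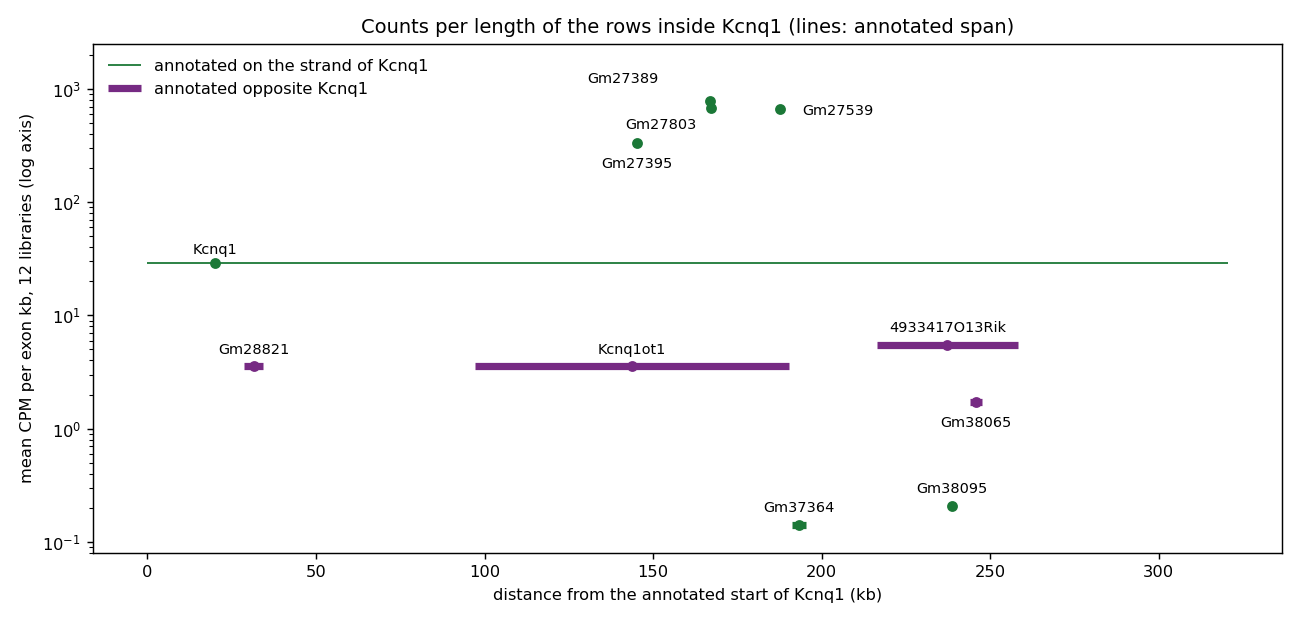
Mean CPM per exon kb over the 12 libraries (log axis) against distance from the annotated start of Kcnq1 in kb, with lines for the annotated span of each row and 1 point per row; rows on the strand of Kcnq1 are green and rows opposite it purple, and 2 rows without counts are not drawn. The 4 short green rows within Kcnq1ot1 lie at 333 to 787 CPM per kb, and Kcnq1ot1 lies at 3.55 CPM per kb.

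The row Kcnq1ot1 held the most counts of the 4 opposite-strand rows and was ordered the same way in each comparison of groups. It had 723, 671 and 542 CPM in MECS U1, 294, 372 and 403 CPM in naive U1, 268, 211 and 205 CPM in MECS input and 60.0, 118 and 95.0 CPM in naive input. The groups did not overlap at any step, and the lowest library was naive input 1. Mean levels were 645 ± 93.2 CPM in MECS U1, 356 ± 56.3 CPM in naive U1, 228 ± 34.9 CPM in MECS input and 91.1 ± 29.4 CPM in naive input (SD, n = 3 each). The log2 change with MECS was 1.33 (SE 0.20) in input RNA and 0.83 (SE 0.15) in U1 RNA. The log2 difference of U1 over input was 1.50 (SE 0.15) in MECS and 2.01 (SE 0.20) in naive brain. Without naive input 1, the change with MECS in input RNA was 1.09 and the difference of U1 over input in naive brain was 1.77. By size of the log2 change from the highest, Kcnq1ot1 stood at rank 39 of 10402 features with MECS in input, 195 of 11141 with MECS in U1, 101 of 10791 for U1 over input in MECS brain and 69 of 10918 in naive brain. These 4 comparisons share groups and are not independent of each other.

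The row of Kcnq1 itself varied little across the 4 groups. It had 134, 109 and 125 CPM in MECS U1, 128, 125 and 133 CPM in naive U1, 102, 110.0 and 110 CPM in MECS input and 115, 136 and 108 CPM in naive input. MECS and naive libraries overlapped in both kinds of RNA, U1 and input libraries overlapped in both states, and the whole range was 102 to 136 CPM. The log2 change with MECS was -0.17 (SE 0.18) in input and -0.08 (SE 0.16) in U1 RNA, and U1 over input was 0.20 (SE 0.16) in MECS and 0.13 (SE 0.18) in naive brain. Its exons and the body of Kcnq1ot1 share only exon 11, 2.96% of the exon bases of Kcnq1. The files give no positions of reads within a row, so the part of this exon in the 94 to 249 counts per library is not known.

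Of the smaller opposite-strand rows, 4933417O13Rik, an uncharacterised noncoding gene, had few counts, with group means in the order of Kcnq1ot1. It had 20.5, 21.4 and 13.6 CPM in MECS U1, 8.57, 10.6 and 19.8 CPM in naive U1, 7.39, 7.16 and 4.82 CPM in MECS input and 2.57, 5.78 and 3.02 CPM in naive input. U1 and input did not overlap in either state, whereas MECS and naive libraries overlapped in both kinds of RNA. U1 over input was 1.48 (SE 0.39) on the log2 scale in MECS and 1.87 (SE 0.57) in naive brain, and the change with MECS in U1 RNA was 0.48 (SE 0.37). Gm38065 averaged 8.28 ± 2.33 CPM in MECS U1, 8.43 ± 2.08 CPM in naive U1, 3.81 ± 2.004 CPM in MECS input and 3.42 ± 1.71 CPM in naive input (SD, n = 3 each). In CPM every U1 library lay above every input library, the nearest pair by 6.03 against 5.91. The share of all features that separate in this way was not counted. Raw counts of Gm38065 were 8 to 14 in MECS U1, 8 to 12 in naive U1, 2 to 8 in MECS input and 1 to 6 in naive input. In raw counts it therefore did not separate, with 8 in both kinds of RNA. It did not pass the filter on low counts in the comparisons of U1 with input. Its change with MECS in U1 RNA was 0.01 (SE 0.45). Gm28821 had 1, 2 and 2 counts in MECS U1, 6, 5 and 5 in naive U1, 1, 0 and 2 in MECS input and 3, 0 and 4 in naive input. It passed the filter on low counts in no comparison.

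**Figure D2:**
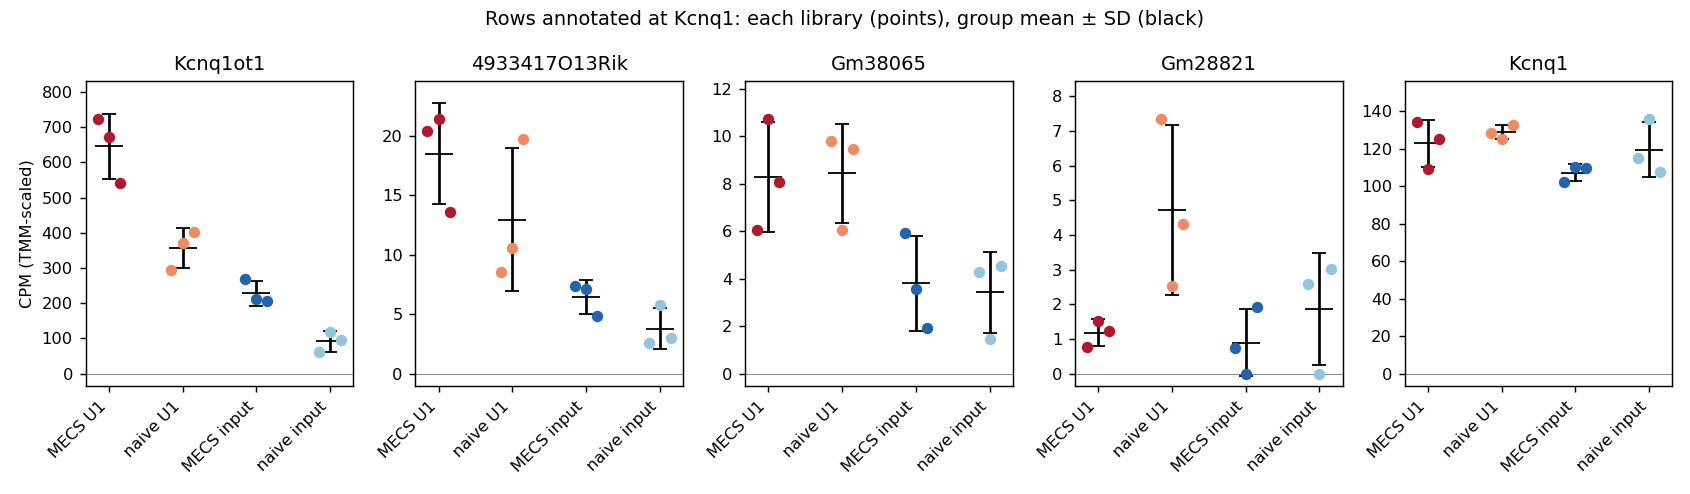
CPM of each library for the 5 rows, 1 panel per row with its own axis; points are libraries and black bars the group mean ± SD (n = 3). Kcnq1ot1 steps down across the 4 groups without overlap, averaging 645 CPM in MECS U1 and 91.1 CPM in naive input, and Kcnq1 stays between 102 and 136 CPM.

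The filter passed 2 of the 5 rows in input RNA, 4 in U1 RNA and 3 in each comparison of U1 with input. The row 4933417O13Rik failed it in input RNA, so it entered the comparisons of U1 with input through its higher U1 counts. Its calls there are therefore no support for a difference. The threshold was an adjusted p of 0.05 over all features in the quasi-likelihood test of edgeR. With MECS in input RNA, 1 row was past it, Kcnq1ot1, where 0.510% of features were higher and 0.0961% lower (0.606% in either direction). With MECS in U1 RNA it was again Kcnq1ot1 alone, where 0.332% were higher and 0.0539% lower (0.386% in either direction). That call ended without naive U1 1, where the change was 0.73, and without MECS U1 1, where it was 0.75. For U1 over input in MECS brain, 2 rows were past it, Kcnq1ot1 and 4933417O13Rik, where 3.30% of features were higher and 5.21% lower (8.51% in either direction). The call of 4933417O13Rik there ended without MECS input 3, MECS U1 1 or MECS U1 2, with differences of 1.31, 1.41 and 1.36. The same 2 were past it in naive brain, where 4.19% were higher and 6.26% lower (10.5% in either direction). There the call of 4933417O13Rik ended with the lysate number as a block, at 1.82, and without naive input 1, naive input 3 or naive U1 3, at 1.66, 1.73 and 1.43. DESeq2 gave it no adjusted p in naive brain. These contrasts were known when the locus was chosen, and the counts are no evidence about it.

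The division of counts among the 5 rows shifted with these values. Kcnq1ot1 held 80.9 ± 2.08% of their counts in MECS U1, 69.5 ± 3.45% in naive U1, 65.6 ± 3.64% in MECS input and 40.8 ± 7.14% in naive input (SD, n = 3 each). Kcnq1 held 15.6% in MECS U1, 25.4% in naive U1, 31.2% in MECS input and 54.9% in naive input. The other 3 rows together held 3.19 to 5.11%.

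The 4 short plus-strand rows within Kcnq1ot1 took no part in the choice of the locus and were tested in the same fits. Gm27389 had 177, 180 and 194 CPM in MECS U1, 132, 154 and 127 CPM in naive U1, 170, 164 and 173 CPM in MECS input and 109, 129 and 132 CPM in naive input. Its MECS libraries lay above its naive libraries in both kinds of RNA, its U1 libraries lay just above its input libraries in MECS brain, and U1 and input overlapped in naive brain. The log2 change with MECS was 0.43 (SE 0.17) in input and 0.39 (SE 0.15) in U1 RNA. Gm27395, Gm27803 and Gm27539 also had changes above 0, from 0.21 to 0.28 in input and from 0.11 to 0.41 in U1 RNA. MECS libraries lay above naive libraries for Gm27803 and Gm27539 in input RNA and for Gm27395 in U1 RNA. In the other kind of RNA they overlapped. The share of all features without such overlap was not counted. In edgeR, 0 of the 4 rose, where 0.510% of all features were higher in input and 0.332% in U1 RNA. The adjusted p of the 4 rows by edgeR was 0.336 to 0.754 in input and 0.345 to 0.891 in U1 RNA. None of the 4 was called by DESeq2. An unadjusted p under 0.05 was found for 1 of them in input and 2 in U1 RNA, where 9.66% and 10.5% of all features had one.

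U1 over input was near 0 for the short rows. They were between -0.14 and 0.18 on the log2 scale in MECS brain and between -0.26 and 0.19 in naive brain, with 0 of 4 called by edgeR and by DESeq2 where 3.30 and 4.19% of all features were higher. None had an unadjusted p under 0.05, where 19.9% of all features did in MECS and 21.3% in naive brain. The row Kcnq1ot1 was at 1.50 in MECS and 2.01 in naive brain, but it sums counts over 93092 bases, against 998 for the short rows. The part of its counts that falls over the short rows is not known. As a ratio of raw counts, which no library scaling affects, Kcnq1ot1 over the sum of the 4 short rows was 0.24, 0.21 and -0.22 on the log2 scale in MECS U1, -0.58, -0.56 and -0.11 in naive U1, -1.18, -1.48 and -1.51 in MECS input and -2.82, -2.02 and -2.44 in naive input. This ratio did not overlap between U1 and input libraries, nor between MECS and naive input libraries. In U1 RNA the lowest MECS library lay below the highest naive library. The ratio carries the known contrasts of Kcnq1ot1 and was not tested.

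**Figure D3:**
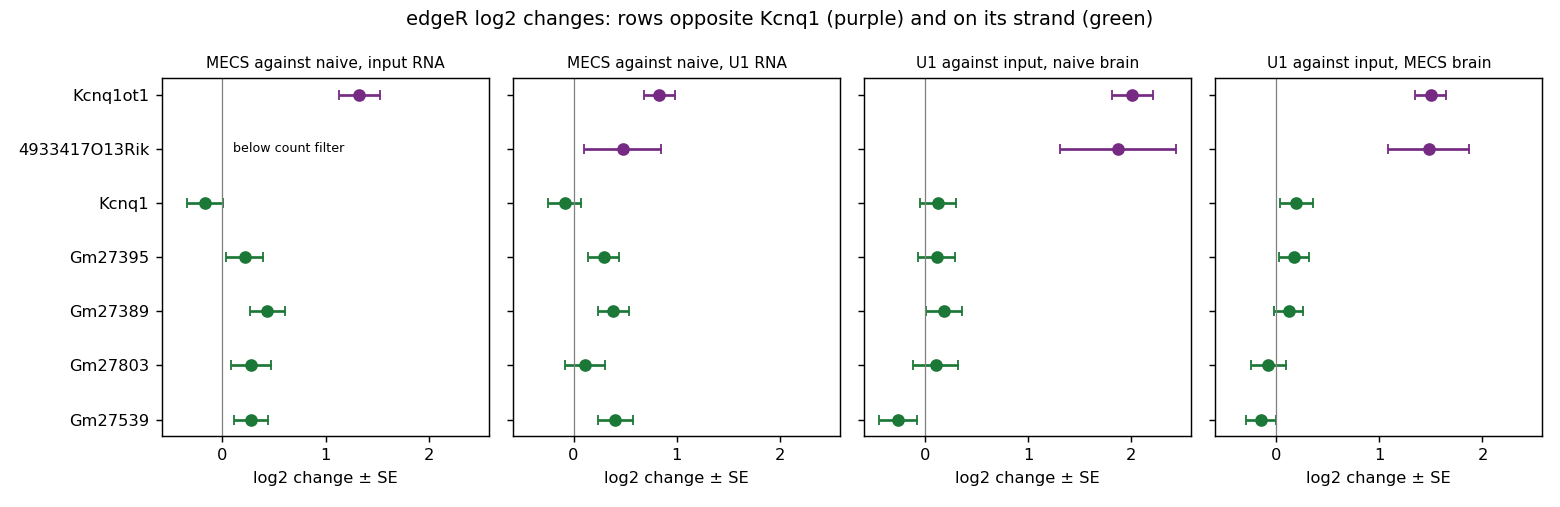
Log2 change ± SE from the edgeR fits in 4 comparisons, 1 panel each, for the 2 larger rows opposite Kcnq1 (purple) and for Kcnq1 and the 4 short rows on its strand (green); 4933417O13Rik was under the count filter in input RNA. For U1 over input the purple rows lie at 1.48 to 2.01 and the green rows between -0.26 and 0.20.

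The MECS effect on the U1 to input ratio was fitted as an interaction over the 12 libraries. It is made of the contrasts known when the locus was chosen, so the values of the rows are a description. For Kcnq1ot1 it was -0.51 on the log2 scale (SE 0.26), and -0.25 without naive input 1. The effects were -0.39 (SE 0.69) for 4933417O13Rik, -0.07 (SE 0.82) for Gm38065 and 0.08 (SE 0.23) for Kcnq1. Over all 12184 features, edgeR called 0 (0.00%), 383 had an unadjusted p under 0.05, and DESeq2 called 0. With the lysate number as a block the Kcnq1ot1 effect was -0.51 (SE 0.21).

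Per lysate, the U1 to input ratio of Kcnq1ot1 was 2.69, 3.17 and 2.64 in MECS lysates and 4.86, 3.14 and 4.22 in naive lysates. The highest MECS value lay just above the lowest naive value. The mean log2 ratio was 1.498 ± 0.147 in MECS and 2.003 ± 0.323 in naive lysates (SD, n = 3 each), a difference of -0.51. For 4933417O13Rik the ratio was 2.66, 2.86 and 2.66 in MECS lysates and 2.95, 1.76 and 5.77 in naive lysates, with the MECS values inside the naive range. For Kcnq1 the ratio was 1.31, 0.995 and 1.14 in MECS lysates and 1.12, 0.922 and 1.23 in naive lysates.

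**Figure D4:**
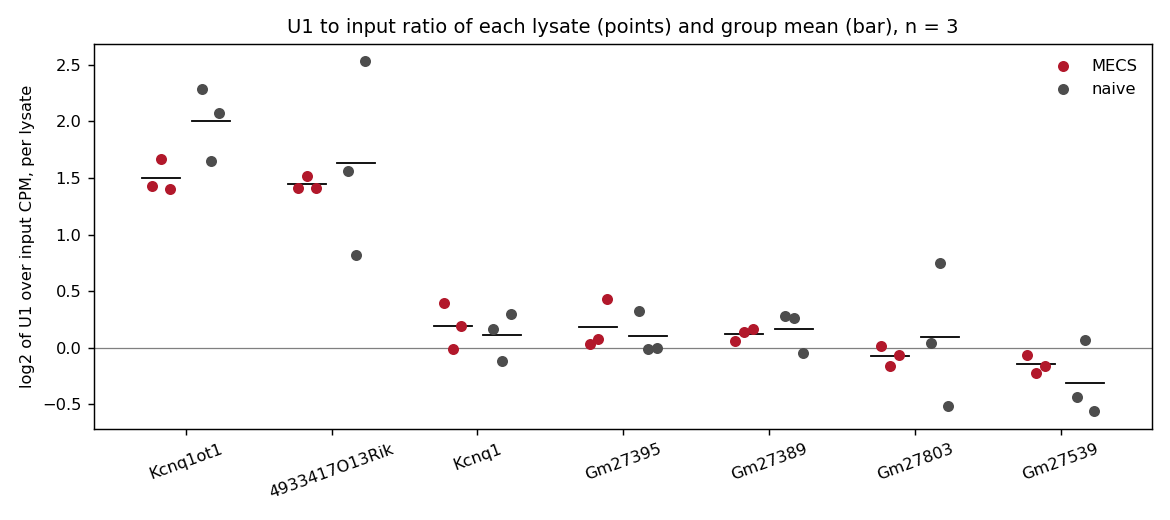
Log2 of U1 over input CPM with a pseudocount of 0.5 CPM, for each MECS lysate (red, left) and naive lysate (grey, right), with bars at the mean of 3. Kcnq1ot1 averages 1.498 in MECS and 2.003 in naive lysates, and Kcnq1 and the 4 short rows have means between -0.31 and 0.19.

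Genes of the surrounding imprinted domain had few counts. Of 20 neighbours from Igf2 to Nadsyn1, 3 passed the filter in input RNA and 4 in U1 RNA and in both comparisons of U1 with input. None was called with MECS, where 0.606% of all features were called in input and 0.386% in U1 RNA. In input RNA the tetraspanin genes Tspan32 and Cd81 were at 0.09 (SE 0.25) and -0.22 (SE 0.34) on the log2 scale, and the cation channel gene Trpm5 at -0.05 (SE 0.27). The medians were -0.05 in input and -0.25 in U1 RNA, where all features tested had medians of -0.02 in both, and 0.14 for U1 over input in MECS and 0.34 in naive brain, where all features had 0.02 and 0.03. For U1 over input in MECS brain none of 4 was called, where 8.51% of all features were. There Cdkn1c, a maternally expressed inhibitor of cyclin-dependent kinases, was at 1.30 (SE 0.49). In naive brain, where 4.19% of all features were higher, 1 of 4 was: Cdkn1c had 15.1 CPM in U1 against 4.67 CPM in input, a log2 difference of 1.66 (SE 0.52, adjusted p = 0.0357 by edgeR). That call was lost with DESeq2, with the lysate number as a block, without a filter, and without naive input 1, 2 or 3 or naive U1 3. Cdkn1c failed the filter in input RNA, so it was tested for U1 over input through its higher U1 counts. Its call is therefore no support for a difference.

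Among genes of potassium channel partners, Ank3, which encodes ankyrin-G, was lower in U1 than in input RNA in both states, at -1.18 (SE 0.22, adjusted p = 0.00106 by edgeR) in MECS and -0.91 (SE 0.24, adjusted p = 0.0106) in naive brain. The scaffold gene Akap9 was lower in naive brain, at -0.72 (SE 0.21, adjusted p = 0.0202 by edgeR), and was not called in MECS brain, at -0.45 (SE 0.15, adjusted p = 0.0815 by edgeR). Neither was called with MECS in either kind of RNA. Kcne1 had no counts in any library.

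Among 8 other imprinted noncoding RNA genes, 5 were tested with MECS in input RNA and none was called, where 0.606% of all features were. With the replicate number as a block 1 rose, where 104 of 10402 features were higher. In U1 RNA, where 0.332% of all features were higher, 1 of 6 rose: Nespas, annotated opposite Gnas, at 35.4 CPM in MECS U1 against 9.89 CPM in naive U1 (1.96, SE 0.35, adjusted p = 0.00938 by edgeR). That call was lost with DESeq2 and without MECS U1 3. Snhg14, annotated opposite Ube3a, was the 1 of 5 called lower in U1 than in input RNA of MECS brain and the 1 of 6 in naive brain, where 5.21 and 6.26% of all features were lower, at -0.60 (SE 0.14) in MECS and -0.79 (SE 0.18) in naive brain. The medians of these genes were 0.38 with MECS in input, 0.00 with MECS in U1, -0.31 for U1 over input in MECS and 0.15 in naive brain. Of 13 chromatin factors linked to Kcnq1ot1, such as the Polycomb subunit gene Ezh2 and the methyltransferase gene Ehmt2, 7 or 8 were tested in each of these 4 comparisons. None was called, where 0.606, 0.386, 8.51 and 10.5% of all features were, in the same order. The medians of these factors were -0.22, 0.09, 0.14 and -0.33. With the lysate number as a block, 1 was higher in U1 than in input RNA of MECS brain, where 647 of 10791 features were higher.

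The 6 features outside Kcnq1 most like Kcnq1ot1 across the 12 libraries were Car9, Gm49084, Gm17590, Sytl1, Ddi1 and Gm34648, with Pearson's r of 0.959 to 0.967 on log2 CPM among 15624 features. The 12 points share the 4 groups, and 36 features had an r of at least 0.9. Gm49084 lies wholly inside the span of Galnt15 on the opposite strand, Gm17590 inside Cdk6, Ddi1 inside Pdgfd and Gm34648 inside Igfbp7. Sytl1 has no gene opposite. How many of the 15624 features compared lie inside a gene on the opposite strand was not counted. Car9, a carbonic anhydrase gene with part of the antisense gene Gm12454 opposite it, averaged 69.2 ± 12.4 CPM in MECS U1, 48.7 ± 10.1 CPM in naive U1, 24.6 ± 4.38 CPM in MECS input and 9.95 ± 3.89 CPM in naive input (SD, n = 3 each).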

How the data were processed

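For each of 12 libraries the authors deposited raw counts per Ensembl identifier, without normalization; 55230 of 55471 matched GENCODE M21 (GRCm38, the assembly of mm10), whose coordinates and transcript sequences are used. The submitters' processing notes name DESeq2, FastQC, Salmon 1.4, StringTie 2.1.3, HISAT2 2.2.0 and Trimmomatic 0.39, without their roles. Which tool counted, and on which strand, is not stated there. Rows naming no gene, 98.2 to 98.6% of reads, were left out.

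The 5 comparisons were fitted over all features with edgeR 4.0.16 in R 4.3.3 (quasi-likelihood test, TMM, filterByExpr, Benjamini-Hochberg at 0.05) and checked on simulated data. SE is the log2 change over the square root of F. Likeness used log2 CPM (prior count 2) of features with a mean of at least 2. Members and lists were chosen with earlier results of these data known. Named were the members, list genes called, the 6 features most like Kcnq1ot1, and other features inside Kcnq1; some list genes that were not called were named as examples. Some genes of the potassium channel partner list, and its counts and medians, are not reported here. The exact tests of shares and per-lysate ratios and the interaction test of the members are not reported, since these carry the known contrasts.

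The protocol takes input and U1 RNA from the same lysate, and titles number both alike. Their deviations from group means correlated at 0.13, 0.22 and 0.12 in MECS and 0.01, -0.11 and -0.02 in naive lysates. Alternatives were RLE or library size scaling, no filter, DESeq2 1.42.0, 1 fit over 12 libraries, a fit blocked on the replicate number, and fits that each lacked 1 library. Nothing but the numbering says that libraries of a group are separate, so p-values measure only the spread between these samples, which may be technical.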

Additional observations from a re-analysis of the deposited data

How the results depend on the processing

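Over 65 refits, Kcnq1ot1 kept its direction in each comparison. Its log2 change ranged over 1.09 to 1.54 with MECS in input, 0.73 to 0.95 with MECS in U1, 1.41 to 1.62 for U1 over input in MECS and 1.77 to 2.21 in naive brain, and -0.69 to -0.25 for the interaction. Calls of Kcnq1ot1 and 4933417O13Rik are a description and no evidence, since the locus was chosen with its contrasts known. That of Kcnq1ot1 with MECS in U1 RNA ended without naive U1 1 and without MECS U1 1. The calls of 4933417O13Rik for U1 over input ended in 3 refits in MECS and 4 in naive brain, the replicate block among those in naive brain. With the replicate block the values in this order were 1.34, 0.83, 1.50, 2.02 and -0.51. MECS and naive libraries share only a number, and only 1 of the 6 correlated best with its own number in the other group. The 4 short plus-strand rows were called in none of their refits, with a lowest adjusted p of 0.0606. Without the Kcnq1 row, the share outside Kcnq1ot1 moved by -5.15, -2.71, -0.46 and -2.90 percentage points in the first 4 comparisons, against -24.8, -11.4, -15.3 and -28.7 with it. Alternatives gave the per-lysate difference as -0.68 to -0.37, chosen after seeing the data (without pseudocount, without 1 lysate). Of 520 counts of called list genes across the refits, 27 moved to or from 0 or by a large ratio, by 1 or 2 genes. Counts that changed by a smaller ratio are not among these. The Cdkn1c list count was 0 without naive input 1, 2 or 3 and without naive U1 3. The call of Nespas was lost with DESeq2 and without MECS U1 3, where the count was 0, and 2 imprinted genes rose without naive U1 2; in input RNA 1 rose with library size scaling, without a filter, with the block and without MECS input 2. In naive brain 2 imprinted genes were lower in U1 with 1 fit over 12 libraries and without naive U1 1, and 1 was higher with library size scaling and 2 without naive U1 2. The few counts of Gm28821, 4933417O13Rik and Gm38065 limit what can be seen of them.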

Other observations

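The sequence of the 93092 bases of Kcnq1ot1 was searched for GGTAAG, the core of a strong 5′ splice site with which U1 pairs, and for AATAAA, the common polyadenylation signal, on both strands and counting overlapping matches. GGTAAG occurred 27 times on the strand of Kcnq1ot1 and 12 times on the strand of Kcnq1. It was present in 19.4 and 12.9% of 93 windows of 1 kb, against 15.5 and 16.01% of 15775 such windows cut from 8290 other single-exon transcripts, read on their own and on the opposite strand. AATAAA occurred 115 times on the strand of Kcnq1ot1 and 43 times on the strand of Kcnq1, in 61.3 and 30.1% of windows, against 39.9 and 47.8% of the other windows. These are matches of letters, and nothing in the counts shows which of them U1 or the polyadenylation machinery used.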
